A study of Mus musculus with 2 samples.

Results

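Cycling T lymphocytes were the T cells of the inflamed mouse stomach that carried transcripts of the cell division machinery. Members were chosen by their measured UMIs (unique molecular identifiers, each 1 captured RNA molecule). Barcodes first had to show 200 or more genes and no more than 10% mitochondrial UMIs. A member then held at least 1 UMI of Cd3d, Cd3e and Cd3g together, 0 of Cd79a, and at least 3 UMIs of Mki67, Top2a, Birc5, Cdk1 and Rrm2 together. The rule was met by 266 barcodes, of which 187 came from IL-27 mice and 79 from PBS mice. They were 2.81% of the 9470 barcodes that passed the Cd3 and Cd79a gate (T-gated cells) and 0.822% of the 32372 barcodes that passed the filters, out of 33173 deposited. The other 9204 T-gated barcodes are called other T cells. The rule reads measured UMIs, so every level set against other T cells is a description of the cells it chose and carries no test.

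All animals were TxA23 mice, which carry a transgenic T cell receptor against the gastric proton pump and develop autoimmune gastritis. The IL-27 group was 3 females whose osmotic pumps held recombinant IL-27 with its p28 and EBI3 chains linked (800 ng in 200 µL, or 4 µg/mL), and the PBS group was 1 male and 1 female with pumps of PBS alone; the pumps went under the skin at 3 months of age and stayed for 4 weeks. Live CD45-positive cells flushed from the gastric mucosa entered droplet-based 5′ single-cell RNA sequencing, with 1 deposited count matrix for each treatment. Barcode suffixes split the IL-27 matrix into 3 wells and the PBS matrix into 2, and the labels do not say whether a well is a mouse, so no treatment has a labelled replicate and all intervals given here cover counting error only.

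A dividing cell licenses its replication origins with the MCM helicase, copies its DNA with polymerases and a supply of deoxynucleotides, and then condenses and separates its chromosomes under CDK1, Aurora and Polo kinases. E2F factors switch on many of the genes of DNA synthesis, and the MuvB complex with B-MYB and FOXM1 those of mitosis. T cells enter this programme after antigen receptor and costimulatory signals, and IL-27 acts on them through IL27RA and gp130 (Il6st), which signal through JAK kinases to STAT factors.

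The wells were of unequal size and PBS well 2 stood apart. IL-27 wells 1, 2 and 3 held 90, 53 and 44 members, and PBS wells 1 and 2 held 65 and 14. Well totals lay between 20837859 and 28382468 UMIs. Of the 14 members in PBS well 2, 8 were called male by Y-linked UMIs and 1 female by Xist, whereas 0 of the members in the other wells were called male. That well also had the highest levels of cytotoxic genes (Ccl5 at 5936 CPM, a gene's UMIs scaled to a common library total, in its members) and of other lineages' genes, and results that rest on it are given below by well or also without it. The libraries shared 117 full barcodes, which included those of 4 members. Scrublet, a doublet caller, marked 0 of the 266 members; in PBS well 2 it marked 0.018% of all cells and was not used there.

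Members were large libraries. Their median depth was 14438.5 UMIs (quartiles 10316.5 and 19197.2), against 3854 UMIs in other T cells, a ratio of 3.75, and only 0.695% of other T cells reached the members' median. The ratio held in each well, at 3.96, 3.72 and 3.69 across the IL-27 wells, beside 3.60 and 2.89 across the PBS wells. The summed UMIs of the 5 cycle genes in a member had a median of 19.5 and ran between 3 and 94, with 194 members (72.9%) at 10 or more. Among other T cells 8700 had a sum of 0, 436 of 1 and 68 of 2. At the edge of the rule, 16 members had 3 UMIs and 16 had 4; the median depth was 11665 UMIs in cells with 3 and 7081 in those with 2. Members held at least 5 Cd3 UMIs, with a median of 36, although the gate asked for 1.

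T cell identity rested on genes that the gate did not read as well as on those it did. Trbc2, a constant segment of the T cell receptor beta chain, was detected in 262 of 266 members, Lck, the kinase next to the receptor, in 264, and Trac, the alpha constant segment, in 252. Markers of other lineages were mixed. The B cell gene Ms4a1 (CD20) gave 1 UMI in all members together, but the 12 B cell markers, MHC class II genes among them, summed to 252, 267 and 278 CPM in members of the IL-27 wells and 1035 and 2926 CPM in members of the PBS wells, against 547, 432, 468, 596 and 2362 CPM in other T cells. Of the 10 myeloid markers S100a8, S100a9 and Cd14 had 0 UMIs, whereas C1qa, of complement, was at 19.4 CPM in members and 12.7 CPM in other T cells. Of 6 genes of immature thymocytes, Rag1, Rag2 and Ptcra had 0 UMIs and Dntt had 13 UMIs in 5 cells. The other members of that list were detected: Cd24a, which B cells and other cells also carry, had 127 UMIs in 51 cells (30.4 CPM in members and 15.5 CPM in other T cells), and Cd1d1 had 44 UMIs in 40 cells (10.5 and 22.1 CPM). Genes of other lineages gave 5 or more UMIs in 8 members, of which 3 were in IL-27 well 2, 1 in IL-27 well 3 and 2 in each PBS well. The same 5 cycle genes reached 3 UMIs in 409 barcodes in all, of which 57 were left out for carrying Cd79a beside Cd3 and 86 for lacking Cd3. Of those 57, 20 had a single Cd79a UMI, their median was 4 Cd79a and 31 Cd3 UMIs, and how many were T cells was not tested.

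The share of T cells in cycle did not separate the treatments. It was 3.08%, 2.62% and 2.14% across the IL-27 wells, beside 4.03% and 1.64% across the PBS wells, so that both PBS wells lay outside the IL-27 range, on opposite sides. By library it was 2.67% (exact 95% binomial interval 2.30 to 3.07) with IL-27 and 3.20% (2.55 to 3.98) with PBS, a ratio of 0.833 (0.637 to 1.098). The ratio was 1.62 (0.944 to 3.03) without PBS well 1 and 0.662 (0.497 to 0.893) without PBS well 2, and 0.715 (0.536 to 0.966) over cells called female. With every T cell thinned to 2000 UMIs the share was 1.70% with IL-27 and 2.15% with PBS. As a share of all cells, members were 0.909% with IL-27 and 0.670% with PBS, a ratio of 1.36 (1.04 to 1.79), in samples where T-gated cells were 34.04% and 20.9% of all cells. The share of all cells reads both how many cells were T-gated and how many of those cycled. By library the T-gated share was higher with IL-27, while the cycling share of T cells was not, at a ratio of 0.833.

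**Figure D1:**
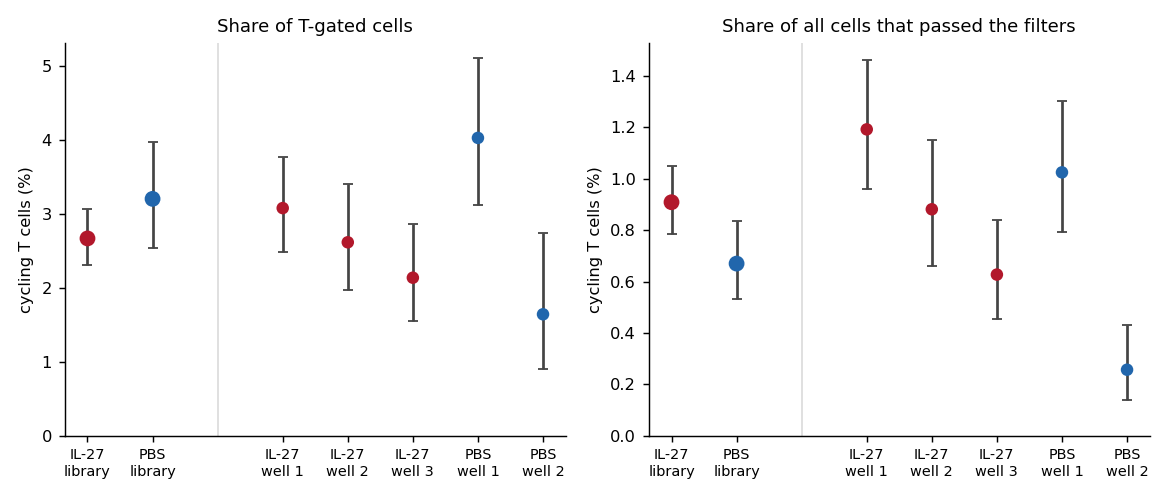
Cycling T cells as a share of T-gated cells (left, %) and of all cells that passed the filters (right, %), with exact 95% binomial intervals, for each library and each well (red, IL-27; blue, PBS). PBS wells 1 and 2, at 4.03% and 1.64% of T cells, lie above and below the 3 IL-27 wells.

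The 5 genes of the rule were high in members of every well, as the rule requires. Mki67, whose protein coats mitotic chromosomes, was at 312, 359.8 and 287 CPM in members of the IL-27 wells and 362 and 521 CPM in members of the PBS wells, against 2.35, 3.65, 3.04, 1.99 and 8.27 CPM in other T cells of the same wells. Birc5 (survivin, of the chromosomal passenger complex) averaged 6.57 UMIs per member and 0.00445 per other T cell, Top2a (DNA topoisomerase II alpha) 7.20 and 0.0291, Rrm2 (a ribonucleotide reductase subunit) 5.07 and 0.00956, and Cdk1 (the mitotic kinase) 1.79 and 0.00456. Members were above other T cells in 5 of 5 wells for each of the 5 genes, a contrast that the rule itself drew. Across all 8105 genes tested (at least 10 CPM in the higher class and 20 UMIs in both), 563 (6.95%) were at least 2-fold higher in members and 662 (8.17%) at least 2-fold lower, on log2(CPM + 1). The median gene was at -0.20, and TMM scaling, with a log2 offset of -0.18, gave 681 higher and 422 lower. CPM is a share of the captured RNA, and a gene with lower CPM can still have more UMIs in each of these deeper libraries. A lower CPM below is a lower share of RNA and not by itself a lower number of molecules per cell. UMIs per cell depend on how much RNA was captured as well as on how much a cell held, which cannot be told apart here.

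Licensing and DNA synthesis genes were higher almost without exception. All 16 licensing genes tested were at least 2-fold higher in members, in 5 of 5 wells each, with a median log2 ratio of 2.44. Cdc6, which loads the MCM helicase, was at 40.7, 43.1 and 43.4 CPM in members of the IL-27 wells and 33.3 and 30.3 CPM in members of the PBS wells, against 0.661 CPM in other T cells pooled. Gmnn (geminin, which blocks a further round of licensing) was at 175 CPM in members and 19.1 CPM in other T cells, and Mcm6, a helicase subunit, at 158 and 31.6 CPM. Among 28 DNA synthesis genes 27 were at least 2-fold higher, with a median of 2.43. Tk1 (thymidine kinase) was at 191, 211 and 198 CPM in members of the IL-27 wells and 193 and 194 CPM in members of the PBS wells, and between 2.501 and 5.25 CPM in other T cells of any well. Tyms (thymidylate synthase) was at 142 and 6.88 CPM in members and other T cells, Clspn (claspin, of the replication checkpoint) at 92.5 and 0.906 CPM, and Pcna, the polymerase clamp, at 207 and 49.9 CPM. The exception was Rpa1, of the single-strand DNA binding complex, at 96.6 and 62.5 CPM.

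Cyclins and their regulators were less uniform. Of 15 genes in the list 11 were at least 2-fold higher and 1 lower. Ccna2 (cyclin A2) was at 248 CPM in members and 0.465 CPM in other T cells, Ccnb2 (cyclin B2) at 231 and 1.89 CPM, and Ccne1 (cyclin E1) at 68.1 and 4.63 CPM. Ccnd2 (cyclin D2) was lower, at 159, 161 and 149.6 CPM in members of the IL-27 wells and 145 and 133 CPM in members of the PBS wells, against 315, 353, 318, 337 and 377 CPM in other T cells, although a member held 1.63 times as many of its UMIs. Ccnd3 (cyclin D3) was at 273 and 225 CPM. Of the E2F, FOXM1 and B-MYB regulators 9 of 12 were at least 2-fold higher, among them Mybl2 (B-MYB; 61.5 and 0.612 CPM), E2f8 (a late repressor of E2F targets; 44.7 and 0.0980 CPM) and Foxm1 (31.8 and 0.539 CPM); Myc, at 50.7 and 85.6 CPM, was lower in 5 of 5 wells, with 2.10 times as many UMIs per member.

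Brakes on the cycle differed among themselves. Of 11 genes of the list 4 were at least 2-fold lower in members: Btg1 (antiproliferative; 381 and 1194 CPM), Tob1 (antiproliferative; 7.89 and 29.5 CPM), Btg2 (90.6 and 192 CPM) and Cdkn1b (the CDK inhibitor p27; 38.0 and 79.1 CPM). Per cell, members held 1.13, 0.948, 1.68 and 1.70 times as many UMIs of these 4 genes, so 3 of them were lower in share but not in captured UMIs. Cdkn2c (the CDK4 and CDK6 inhibitor p18) went the other way, at 95, 122 and 92.8 CPM in members of the IL-27 wells and 82.3 and 84.8 CPM in members of the PBS wells, against 7.21, 7.998, 9.35, 8.24 and 30.2 CPM in other T cells. Members were above other T cells for Cdkn2c in every well.

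Mitotic genes showed wide gaps. Of 17 mitotic kinase and checkpoint genes 16 were at least 2-fold higher in members, with a median log2 ratio of 4.51, and Bub3 was the exception at 0.86. Ube2c, the ubiquitin-conjugating enzyme of the anaphase-promoting complex, was at 430.0, 518 and 401 CPM in members of the IL-27 wells and 586 and 399.8 CPM in members of the PBS wells, against 3.97, 2.12, 3.15, 3.41 and 0.267 CPM in other T cells. Aurkb (Aurora B) was at 110.0 and 0.882 CPM, Plk1 (Polo-like kinase) at 69.8 and 0.441 CPM, and Cdca8 (borealin, of the passenger complex) at 201 and 3.11 CPM. All 27 spindle and cytokinesis genes were at least 2-fold higher, with a median of 4.46, including the mitotic kinesin Kif11 (92.8 and 0.784 CPM) and Stmn1, a regulator of microtubule ends (818 and 38.8 CPM). Histone, condensin and chromatin genes were higher in 18 of 19 cases; Hist1h2ap, a replication-dependent histone, was at 6143 CPM in members and 44.6 CPM in other T cells, but histone genes of this cluster are near-identical copies whose reads can be split between them. Smc4, of condensin, was the exception at 459 and 341 CPM.

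The promoters of the genes that moved together in mitosis are known to carry a CHR element, bound by the MuvB complex, and CCAAT boxes, bound by NF-Y, so their letters were looked up in the RefSeq promoters of build GRCm38.p6 (250 bases before to 50 after each start). TTTGAA (CHR) and CCAAT were searched on both strands. Only genes whose promoter held both motifs were chosen for printing. That every sequence below carries both was therefore set by the choice and is not a result. The sequences below are those of 3 genes of the rule and 2 mitotic genes, 5′ to 3′ on the strand of the gene in lower case, with each match in capitals (TTCAAA and ATTGG are matches on the other strand).
Mki67 (chr7:135716330-135716629, minus strand): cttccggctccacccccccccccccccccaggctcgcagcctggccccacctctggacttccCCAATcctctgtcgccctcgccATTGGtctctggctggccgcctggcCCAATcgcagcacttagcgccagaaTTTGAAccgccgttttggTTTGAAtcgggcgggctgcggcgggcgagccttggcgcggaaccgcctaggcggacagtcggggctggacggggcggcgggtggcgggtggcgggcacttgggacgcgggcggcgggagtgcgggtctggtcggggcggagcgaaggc
Top2a (chr11:99024140-99024439, minus strand): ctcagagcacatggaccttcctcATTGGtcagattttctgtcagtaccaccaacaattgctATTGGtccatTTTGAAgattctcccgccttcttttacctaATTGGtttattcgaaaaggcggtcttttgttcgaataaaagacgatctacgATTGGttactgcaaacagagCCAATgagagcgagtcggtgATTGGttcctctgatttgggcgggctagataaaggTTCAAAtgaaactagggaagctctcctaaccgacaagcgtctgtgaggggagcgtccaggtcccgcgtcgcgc
Cdk1 (chr10:69352863-69353162, minus strand): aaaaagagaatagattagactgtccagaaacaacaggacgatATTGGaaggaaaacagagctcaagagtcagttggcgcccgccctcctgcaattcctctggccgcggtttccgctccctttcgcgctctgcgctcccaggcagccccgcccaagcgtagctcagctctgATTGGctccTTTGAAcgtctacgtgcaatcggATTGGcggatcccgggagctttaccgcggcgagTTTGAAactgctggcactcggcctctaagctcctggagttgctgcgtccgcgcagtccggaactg
Ube2c (chr2:164769679-164769978, plus strand): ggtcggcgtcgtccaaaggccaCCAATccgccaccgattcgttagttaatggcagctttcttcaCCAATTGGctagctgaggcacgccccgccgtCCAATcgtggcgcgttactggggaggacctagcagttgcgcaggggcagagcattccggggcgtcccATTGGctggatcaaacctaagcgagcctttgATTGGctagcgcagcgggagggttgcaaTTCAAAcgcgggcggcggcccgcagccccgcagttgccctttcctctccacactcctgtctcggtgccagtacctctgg
Cdca8 (chr4:124936868-124937167, minus strand): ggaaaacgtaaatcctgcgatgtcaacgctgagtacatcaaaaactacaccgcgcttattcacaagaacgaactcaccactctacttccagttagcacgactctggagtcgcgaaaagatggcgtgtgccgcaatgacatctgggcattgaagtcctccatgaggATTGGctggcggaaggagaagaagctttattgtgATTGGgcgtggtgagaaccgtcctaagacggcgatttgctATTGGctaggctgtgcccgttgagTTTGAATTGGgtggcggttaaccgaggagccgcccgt
Mki67 held 2 matches to TTTGAA and 3 to CCAAT, Top2a 2 and 6, Cdk1 2 and 3, Ube2c 1 and 6, and Cdca8 1 and 4. A TTTGAA match began 116 and 98 bases before the start of Mki67, 179 and 23 before that of Top2a, 71 and 15 before that of Cdk1, and 29 before that of Ube2c; in Cdca8 it lay 13 bases after the start and overlapped an ATTGG. Of the other 2 genes of the rule, Rrm2 held CCAAT alone and the Birc5 window held neither. Over the whole spindle and cytokinesis list, for which 23 of 27 genes had a promoter in the table, 80% of 25 promoters held TTTGAA and 60% held both motifs. Over the DNA synthesis list (23 of 28 genes) 6.90% of 29 promoters held TTTGAA and 48.3% held CCAAT. All 32851 promoters of the table held TTTGAA in 17.9%, CCAAT in 37.4% and both in 6.95% of cases. Fewer than 80% of the genes of the mitotic kinase, licensing, cyclin and histone lists had an entry, so no share is given for them.

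DNA repair genes were higher in 10 of 14 cases, with a median log2 ratio of 2.48. Bbc3 (PUMA), which promotes apoptosis, was lower, at 1.43 CPM in members and 22.9 CPM in other T cells. Nucleotide and one-carbon genes were at least 2-fold higher in 8 of 19 cases, with Psat1 and Phgdh, of serine synthesis, at 79.1 and 22.4 CPM and at 180 and 58.5 CPM. None of 9 ribosome biogenesis genes reached 2-fold in either direction; Npm1 (nucleophosmin) was at 1569 and 1019 CPM. Outside the lists, the highest log2 ratios in the ranking were those of Pclaf (a partner of PCNA; 965 and 3.23 CPM), histone genes such as Hist1h2ao (675 and 4.51 CPM), Mxd3 (102 and 0.318 CPM), Esco2, which acetylates cohesin (69.1 and 0.122 CPM), Knl1 of the kinetochore (92.1 and 0.514 CPM) and Cdca3 (140 and 1.59 CPM). Il9 was also among them, at 228 UMIs, all in 1 cell of IL-27 well 2.

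**Figure D2:**
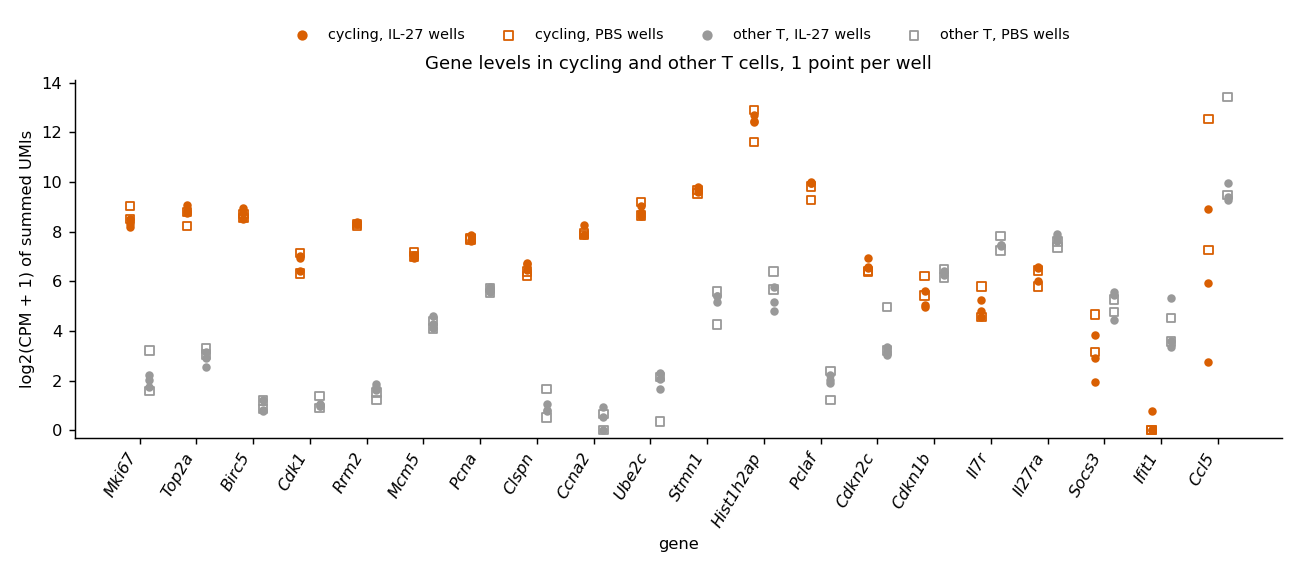
Level of 20 genes in cycling T cells (orange) and other T cells (grey) as log2(CPM + 1), with 1 point per well (filled circles, IL-27; open squares, PBS). Cycle genes sit higher in cycling cells of every well, while Il7r, Il27ra, Socs3 and Ifit1 sit lower, and PBS well 2 lies far above the other wells for Ccl5.

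Genes of resting, signalled and effector T cells took a smaller share of the RNA in members. Il7r, the IL-7 receptor of resting T cells, was at 22.9, 36.6 and 26.9 CPM in members of the IL-27 wells and 22.5 and 54.5 CPM in members of the PBS wells, against 178, 177, 169, 150.4 and 225 CPM in other T cells, and a member held 0.561 times as many of its UMIs as another T cell. Naive genes were at least 2-fold lower in 4 of 11 cases and higher in 0, with a median of 2.12 times as many UMIs per member. The remaining 7 included Tcf7 (354 and 416 CPM), a transcription factor of naive and memory cells, and Ccr7 (179 and 215 CPM), the lymph node homing receptor. Activation genes were lower in 6 of 15 cases, among them the costimulatory receptor Tnfrsf9 (76.0 and 243 CPM), Cd69 (34.2 and 90.8 CPM) and the early response gene Egr2 (17.7 and 55.9 CPM), but these 3 had 1.11, 1.34 and 1.12 times as many UMIs per cell in members. Irf4, a factor induced by receptor signals, was at 51.2 and 30.1 CPM.

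Interferon-response genes were lower in 7 of 12 cases and higher in 0, with a median of 1.54 times as many UMIs per member. Ifit1 gave 1 UMI in all 266 members (0.239 CPM), against 18.2 CPM in other T cells, with 0 in members of 4 of the 5 wells, and Ifit3 also gave 1 UMI, against 9.82 CPM. Ifi27l2a, which is also interferon-induced, was at 1904 CPM in members and 1594 CPM in other T cells. In the list of the IL-27 receptor and its signalling, 3 of 10 genes were lower: Il27ra (80.1 and 206 CPM), Socs1 (44.2 and 131 CPM) and Socs3 (7.41 and 33.5 CPM), the last pair being feedback inhibitors of cytokine receptors. Per cell, members held 1.38, 1.20 and 0.785 times as many UMIs of the 3 genes. Cytotoxic and Th1 genes were lower in 9 of 13 cases and higher in 1, Gzma, where a single cell gave 289 of 468 UMIs; Prf1 (perforin) was at 7.41 and 42.5 CPM and Ccl5 at 389 and 1689 CPM. Natural killer genes were lower in 4 of 4 cases. In 5 of 5 wells, 6 cytotoxic and Th1 genes and 2 natural killer genes were lower. Members held medians of 1.06 and 0.983 times as many UMIs per cell of the 2 lists. PBS well 2 weighs on these pooled levels. In its other T cells the 13 cytotoxic and Th1 genes summed to 16446 CPM, against 1225 to 1741 CPM in those of the other wells. Foxp3, the factor of regulatory T cells, was at 15.5 and 34.6 CPM, with 1.59 times as many UMIs per member. Outside the lists the lowest ratios in the ranking included Ly6c2 (7.89 and 135 CPM), Phf1 (9.09 and 57.3 CPM) and Txnip, which limits glucose uptake (36.3 and 151 CPM).

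Members differed in their balance of S and G2/M transcripts. Each was placed by the larger of its summed UMIs of an S list (licensing and DNA synthesis genes) and a G2/M list (mitotic and spindle genes without the tubulins and Stmn1, with cyclins A2, B1 and B2). By that measure 112 members (42.1%) leaned to G2/M, 153 (57.5%, exact 95% binomial interval 51.3 to 63.5) leaned to S and 1 was even. In 48 members the G2/M list made up between 0.4 and 0.6 of the UMIs of both lists. The sums were not scaled to the length of the lists or to the levels in other T cells, and there was no class for G1. The split therefore depends on the lists, which the interval does not cover. The S-leaning share was 58.9%, 58.5% and 56.8% across the IL-27 wells, beside 55.4% and 57.1% across the PBS wells. The wells were closer to each other than the intervals of single wells, which ran from 28.9% to 82.3% in PBS well 2. Median depth was 13386.5 UMIs in G2/M-leaning and 15416 UMIs in S-leaning members.

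**Figure D3:**
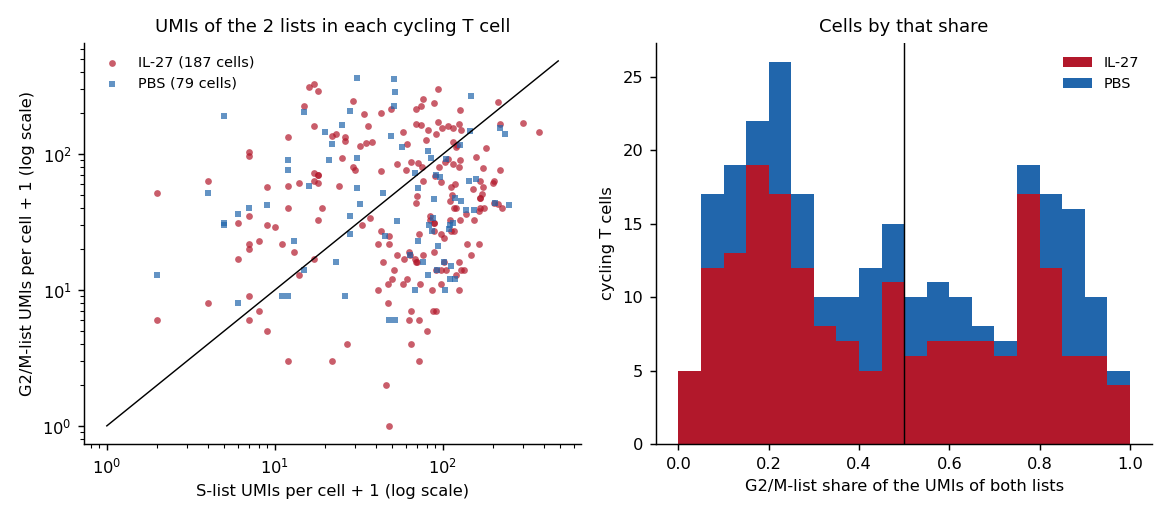
Left: UMIs of the S list (x axis) and of the G2/M list (y axis) in each cycling T cell, both plus 1 on log scales, with a line at equality (red circles, IL-27; blue squares, PBS). Right: number of cells by the G2/M share of both sums, stacked; 112 cells lie on the G2/M side and 153 on the S side.

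Some genes outside the 2 lists differed along this axis, which is a description since the same cells were used to draw it. Cenpa, the centromeric histone, was at 918 CPM in G2/M-leaning members and 191 CPM in S-leaning members, Cks2, a CDK subunit, at 506 and 143 CPM, Cdc25c, the phosphatase that activates CDK1, at 31.2 and 3.88 CPM, and Tubb4b at 531 and 134 CPM, each higher in 5 of 5 wells. E2f1 was at 14.98 CPM in G2/M-leaning and 100.1 CPM in S-leaning members, Ccne1 at 24.3 and 95.5 CPM, Ccne2 at 4.37 and 24.8 CPM, and Mybl2 at 28.1 and 82.3 CPM, each lower in 5 of 5 wells. Replication-dependent histones were higher on the G2/M side, with Hist1h2ap at 8007 and 4980 CPM (4 of 5 wells), Hist1h2ae at 484 and 222 CPM (5 of 5) and Hist1h1b at 368 and 191 CPM (4 of 5), and E2f8 was level at 44.95 and 44.6 CPM. The rule's own genes were not neutral to stage: Birc5 was at 730 and 224 CPM and Cdk1 at 195 and 63.3 CPM, while Rrm2 was at 304 and 333 CPM. Il27ra was at 84.3 CPM in G2/M-leaning and 77.2 CPM in S-leaning members, higher in 3 wells and lower in 2.

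By detected subset genes, UMIs of both Cd4 and Cd8 were found together in many members. Of 266 members, 134 (50.4%) had UMIs of Cd4 and of Cd8a or Cd8b1 without Foxp3, 52 (19.5%) of Cd4 alone, 37 (13.9%) of Cd8 alone, 31 (11.7%) had Foxp3, and 12 (4.51%) had none of these. In other T cells the shares were 10.3%, 27.2%, 23.3%, 9.31% and 30.0%. Detection depends on depth, so cells were also thinned. At 8000 UMIs per cell, which 229 members and 816 other T cells reached, the share with both was 41.5% in members and 26.6% in other T cells, higher in 5 of 5 wells by 10.8 ± 6.70 percentage points (mean and SD over wells, n = 5). At 2000 UMIs it was 6.39% in members and 3.71% in other T cells, again higher in 5 of 5 wells. The difference in the Foxp3 share (members minus other T cells) was 2.34 percentage points with all UMIs, -1.45 at 8000 UMIs and -3.72 at 2000 UMIs (2.26% and 5.98%), so its direction depends on depth.

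Such pairs were rare in cells that should lack both genes. Cd4 and Cd8 UMIs occurred together in 54.1% of members (Foxp3-positive cells included; median depth 14438.5 UMIs) and 10.96% of other T cells (3854 UMIs), against 0.0639% of 18771 Cd79a-positive, Cd3-negative cells (2803 UMIs) and 0 of 79 such cells that met the cycle threshold (15016 UMIs), which allows up to 4.56%. Cd8b1 was found in 2 of those 79 cells and Cd4 in 1. These cells do not show how often a barcode held 2 T cells, and that was not tested for this class. By well the members with both were 58.9%, 49.1% and 36.4% across the IL-27 wells, beside 56.9% and 14.3% across the PBS wells. PBS well 2 had 42.9% of its 14 members in the CD8-only class, the highest of the wells. By library the share with both was 50.8% (43.4 to 58.2) with IL-27 and 49.4% (37.9 to 60.9) with PBS, and the other classes' intervals overlapped too.

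The Cd8 UMIs of the 134 members with both were mostly those of the beta chain. They held 0.172 Cd8a UMIs per Cd8b1 UMI, against 0.611 in the 37 CD8-only members, and 103 of the 133 that had Cd8b1 had no Cd8a. The ratio was 0.236, 0.0220 and 0.0597 across the IL-27 wells, beside 0.217 and 0 across the PBS wells, against 0.738, 0.778 and 0.577 in CD8-only members of the IL-27 wells and 0.286 and 0.667 in those of the PBS wells. It was lower in the members with both in 5 of 5 wells. Other T cells showed the same order, at 0.221 and 0.570. Cd4 itself was at 209 CPM in members with both and 164 CPM in those with Cd4 alone.

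Beta chain V genes other than Trbv1 were scarce in the same cells. At least 3 UMIs of a single Trbv gene other than Trbv1 were found in 11 of 134 members with both (8.21%) and 30 of 52 CD4-only members (57.7%). By well the shares were 1.89%, 11.5% and 0% across the IL-27 wells, beside 16.2% and 50% across the PBS wells for members with both, against 41.7%, 70.0% and 82.4% across the IL-27 wells, beside 25% and 100% across the PBS wells for CD4-only members, lower in 5 of 5 wells, although PBS well 2 had only 2 and 1 such cells. Summed over those genes the level was 68.5 and 734 CPM. The share was 48.6% in CD8-only members, 48.4% in Foxp3 members and 16.7% (2 of 12) in members with none of these genes. For alpha chain genes, 53.0% of members with both and 61.5% of CD4-only members had 3 UMIs of a single Trav gene. That count keeps Trav14d-3-dv8, which B cells also carried and which alone reached 3 UMIs in 20 of 134 and 5 of 52 of these cells, so it is not a like count to that of the beta genes. In other T cells the Trbv shares were 11.1% and 33.1%. These classes were compared after their values had been seen, so no test is given.

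Trbv1 was left out of those counts because it was also found in B cells. It was at 205 CPM in members with both and 156 CPM in CD4-only members, and at 553 CPM in Cd79a-positive, Cd3-negative cells, so its UMIs were not particular to T cells. At least 3 Trbv1 UMIs were found in 52.2% of members with both and 38.5% of CD4-only members, so Trbv1 was not scarce in the former. Among members Trbv1 made up 43.2% of Trbv UMIs, against 37.1% in other T cells. Trbv31 was next, at 21.3% and 8.43%, with 466 UMIs in 23 members and 0.681 CPM in B cells, followed by Trbv13-2, Trbv13-1 and Trbv5. Few cells carried these shares. For Trbv31, 35.6% of the UMIs came from 3 members, and its share ran from 1.81% in IL-27 well 1 to 33.6% in IL-27 well 3. The 25.7% in PBS well 1 came from 2 members. For Trbv13-2, Trbv13-1 and Trbv5, 39.7%, 75.6% and 62.7% of the UMIs came from 3 members. Of the alpha genes Trav14d-3-dv8 led with 14.5% of Trav UMIs in members and 13.7% in other T cells, and it too was present in B cells, at 87.0 CPM; Trav3-3, Trav4-4-dv10, Trav4-3 and Trav6-2 came after it. Trav6-2 UMIs came to 93.2% from 3 members. Of gamma-delta genes, Tcrg-C1 was found in 6 members and Trdc in 26 (9.77%), against Trdc in 11.04% of other T cells. These shares are given with all UMIs, at median depths of 14438.5 UMIs in members and 3854 UMIs in other T cells, so they are not like shares.

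**Figure D4:**
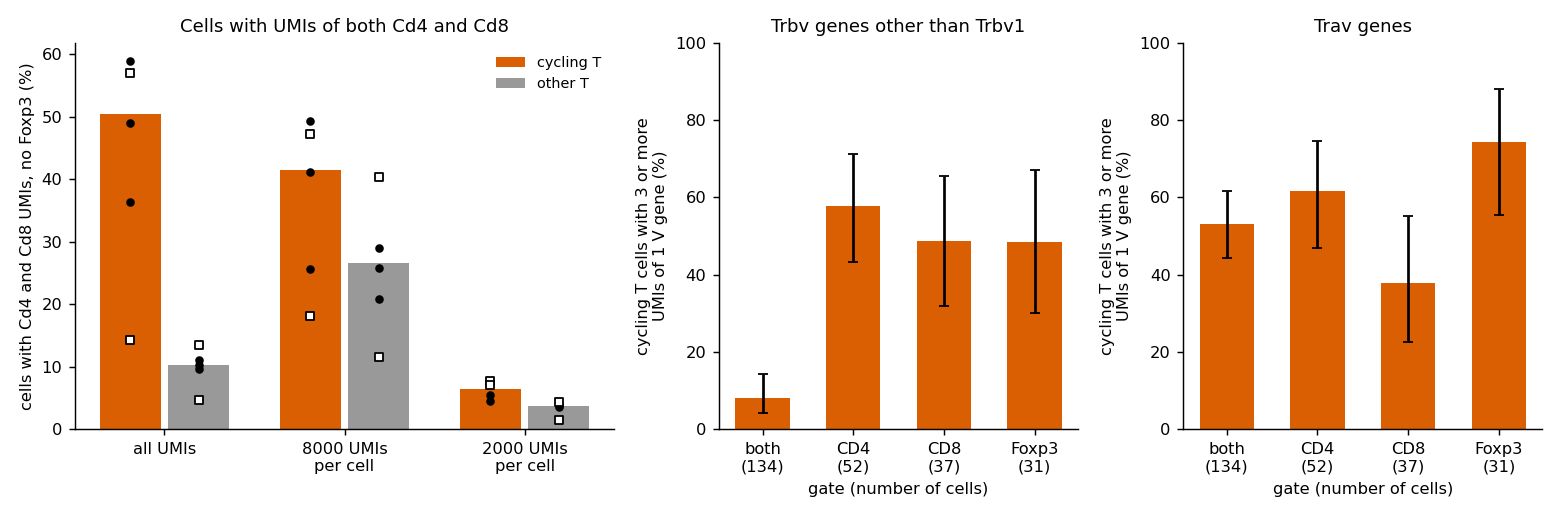
Left: share of cycling (orange) and other (grey) T cells with UMIs of both Cd4 and Cd8 and none of Foxp3, with all UMIs and thinned to 8000 or 2000 UMIs; dots are IL-27 wells and open squares PBS wells. Middle and right: share of cycling T cells with 3 or more UMIs of a single Trbv gene other than Trbv1 or of a single Trav gene, by class, with exact 95% binomial intervals; the class with both stands at 8.21% for Trbv and 53.0% for Trav.

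Other genes differed between the members with both and the CD4-only members. Of 5610 genes tested (at least 20 CPM in the higher class and 20 UMIs), 106 (1.89%) were at least 2-fold higher and 217 (3.87%) at least 2-fold lower in members with both; TMM scaling, with a log2 offset of -0.12, gave 151 and 178, and the higher count was 210 without IL-27 well 1 and 176 without PBS well 1. In 4 of 4 wells with at least 10 cells of each class, 76 (1.35%) and 120 (2.14%) went the same way. Lag3, an inhibitory receptor, was at 170.3, 188 and 202 CPM in members with both of the IL-27 wells and 152 CPM in those of PBS well 1, against 125, 40.6, 49.9 and 39.1 CPM in CD4-only members. Bach2, a repressor of effector genes, was at 53.3 and 14.5 CPM, Itm2a at 120.4 and 39.9 CPM and Dusp2, a phosphatase of MAP kinases, at 214 and 77.4 CPM. The lowest were S100a6 (7.16 and 336 CPM), S100a4 (13.0 and 207 CPM) and Nkg7 (8.06 and 166 CPM), a cytotoxic granule gene, with Lgals1 (galectin-1) at 621 and 2280 CPM and Cd40lg, the helper ligand for B cells, at 19.7 and 72.6 CPM. Lying the same way in 4 of 4 wells was a condition for naming these genes. Median depth was 15558 UMIs in members with both and 13789.5 UMIs in CD4-only members.

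Between the IL-27 and PBS libraries the cycle genes of members were nearly level. Members of both libraries were chosen by the same threshold on 5 cycle genes. How far that threshold holds other cycle genes level was not tested. The medians of log2(IL-27 over PBS) were 0.02 for licensing, 0.11 for DNA synthesis, -0.12 for mitotic, -0.05 for spindle and 0.01 for histone and chromatin genes, beside -0.01 over all 5608 genes tested (20 CPM or more in whichever treatment was higher, with 20 UMIs in all). Of those genes 19 (0.339%) were at least 2-fold higher and 79 (1.41%) at least 2-fold lower with IL-27, and the wells of the groups did not overlap for 548 genes higher (9.77%) and 667 lower (11.9%). Leaving out PBS well 1 gave 412 and 1024 genes past 2-fold, leaving out PBS well 2 gave 36 and 45, and leaving out IL-27 well 1 gave 53 higher. None of the 16, 28, 16, 27 and 19 genes of those 5 lists reached 2-fold in either direction. Mcm5, of the helicase, was at 123, 134 and 126 CPM across the IL-27 wells against 144 and 127 CPM across the PBS wells, which overlap. Mki67 and Top2a are genes of the rule, so their levels among members are a description: Mki67 was at 312, 359.8 and 287 CPM against 362 and 521 CPM, and Top2a at 436, 538 and 459 CPM against 439.9 and 297 CPM. Outside the lists, a pair of histone genes was at least 2-fold lower with IL-27: Hist2h2aa1 was at 45, 20.5 and 40.4 CPM against 114 and 60.6 CPM, and Hist1h2ag at 32.1, 20.5 and 31.4 CPM against 65.6 and 42.4 CPM. Their wells did not overlap, and without the richest cell of each library the log2 ratios were -1.08 and -0.85. DNA synthesis genes did not overlap between the wells in 8 of 28 cases, all higher with IL-27, among them Clspn (96.8 and 81.8 CPM) and Lig1, DNA ligase 1 (167 and 131 CPM).

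Of the IL-27 receptor and its signalling genes, 0 of 8 tested reached 2-fold in either direction, with log2 ratios between -0.99 and 0.32. The highest was Il6st (gp130), at 95.7, 80.8 and 52.4 CPM across the IL-27 wells, beside 74.5 and 6.06 CPM across the PBS wells, which overlap. Il27ra was at 64.3, 94.8 and 91.3 CPM across the IL-27 wells, beside 85.2 and 54.5 CPM across the PBS wells, which overlap. Socs1 was at 26.4, 39.9 and 43.4 CPM in the IL-27 wells, all below the 60.7 and 121 CPM of the PBS wells, a log2 ratio of -0.99. Tyk2, a JAK-family kinase, was at 10.0, 11.9 and 16.5 CPM against 22.5 and 36.3 CPM, a log2 ratio of -0.97. The wells did not overlap for Socs1 or Tyk2. Leaving out PBS well 2 could not make them overlap, so it is no separate check. In other T cells Socs1 was at 103, 147 and 126 CPM across the IL-27 wells, beside 122 and 215 CPM across the PBS wells, which overlap.

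Among genes of at least 50 CPM and 100 UMIs whose wells did not overlap, with receptor, ribosomal, mitochondrial and sex-linked genes left out, none of those higher with IL-27 reached 2-fold. Zbtb32, a repressor induced in activated lymphocytes, led that ranking at 114, 70.0 and 73.3 CPM in the IL-27 wells, all above the 47.0 and 42.4 CPM of the PBS wells, and its log2 ratio of 0.96 was 1.00 without the member richest in it in each library. It was also higher in members than in other T cells, at 78.4 and 17.98 CPM. Xpo1 (exportin 1, of nuclear export) followed at 60.1 and 32.0 CPM, then Safb, Prps1 (of phosphoribosyl pyrophosphate synthesis; 53.7 and 30.4 CPM), Tmem183a, Apex1 (of base excision repair; 58.1 and 34.6 CPM), Sla, Cggbp1, Tbc1d4 and Stim1, with log2 ratios between 0.65 and 0.81 from Safb on.

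In the same ranking the genes lower with IL-27 were led by MHC class II genes, and single cells carried much of their UMIs. H2-Aa was at 5.71, 25.9 and 16.5 CPM across the IL-27 wells, beside 252 and 678 CPM across the PBS wells, but 243 of its 369 PBS UMIs came from 1 cell, and the log2 ratio of -4.35 was -3.26 without the richest cell of each library. Cd74, the class II invariant chain, was at 31.4, 113 and 114 CPM across the IL-27 wells, beside 539.9 and 1714 CPM across the PBS wells, with 495 of 834 PBS UMIs in 1 cell, and Cst3, a cystatin of myeloid cells, at 98.8 and 478 CPM with 386 of 567 in 1 cell; the log2 ratio of Cst3 was -2.26 and, without the richest cells, -0.72. Irf8 was at 10.0, 12.9 and 2.99 CPM against 55.9 and 199.9 CPM. H2-Eb1 was at 10.3 and 183 CPM and H2-Ab1 at 16.4 and 127 CPM. All 4 myeloid markers tested were at least 2-fold lower with IL-27, but without PBS well 2 the direction turned, with 2 higher and 1 lower (median log2 ratio 0.87), and without the richest cell of each library 2 were also higher and 1 lower (0.53). Without the 8 members with 5 or more UMIs of other lineages it was 0 of 4 in either direction, a filter that reads the same kind of genes. The summed level of the 10 myeloid genes was 93.6, 144 and 115 CPM in members of the IL-27 wells and 477 and 2562 CPM in those of the PBS wells, with S100a8, S100a9 and Cd14 at 0 UMIs, and the part of other lineages in these differences was not tested. Tcrg-C1, of the gamma chain, was at 0, 1.08 and 0 CPM across the IL-27 wells, beside 45.1 and 54.5 CPM across the PBS wells. Its UMIs came from 1 member of the IL-27 library and 5 of the PBS library.

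Cytotoxic genes were lower with IL-27 in 8 of 10 cases, with PBS well 2 in the count, and in 2 of 10 without it. Ccl5 was at 5.71, 477 and 59.9 CPM across the IL-27 wells, beside 152 and 5936 CPM across the PBS wells, and Nkg7 at 36.4, 195 and 55.4 CPM against 70.5 and 1563 CPM, so the groups overlapped for both and PBS well 2 alone stood high. Ccl3, a chemokine, was at 4.29, 28.0 and 0 CPM against 31.4 and 254 CPM, without overlap. Over cells called female, however, Ccl3 was higher with IL-27. Over cells called female 1 of 10 was lower and 3 higher. Interferon-response genes were lower in 4 of 7 cases, 3 of 7 without PBS well 2, and 1 of 7 without the richest cell of each library. Isg15 was at 15.7, 42.0 and 43.4 CPM across the IL-27 wells, beside 109.7 and 30.3 CPM across the PBS wells, which overlap, and Irf7, the master regulator of type I interferon, at 13.6, 20.5 and 26.9 CPM, below the 60.7 and 48.5 CPM of the PBS wells. Irf7 had 29 of its 70 PBS UMIs in 1 cell, and its log2 ratio was -1.61 with that cell and -0.98 without the richest cells. With wells taken as replicates, edgeR's quasi-likelihood test at an adjusted p under 0.05 called 0 of 7573 genes higher (0%) and 3 lower with IL-27 (0.0396%): Cst3, Tcrg-C1 and H2-Aa. At an unadjusted p under 0.05 it called 246 genes, and DESeq2 called 0 higher (0%) and 8 lower (0.106%) after adjustment. Without PBS well 1 edgeR called 187 higher and 148 lower, without PBS well 2 it called 1 and 16, and without IL-27 well 3 it called 0 and 1. Sex, well and treatment cannot be told apart in these values, since the male-called members lay in 1 PBS well.

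**Figure D5:**
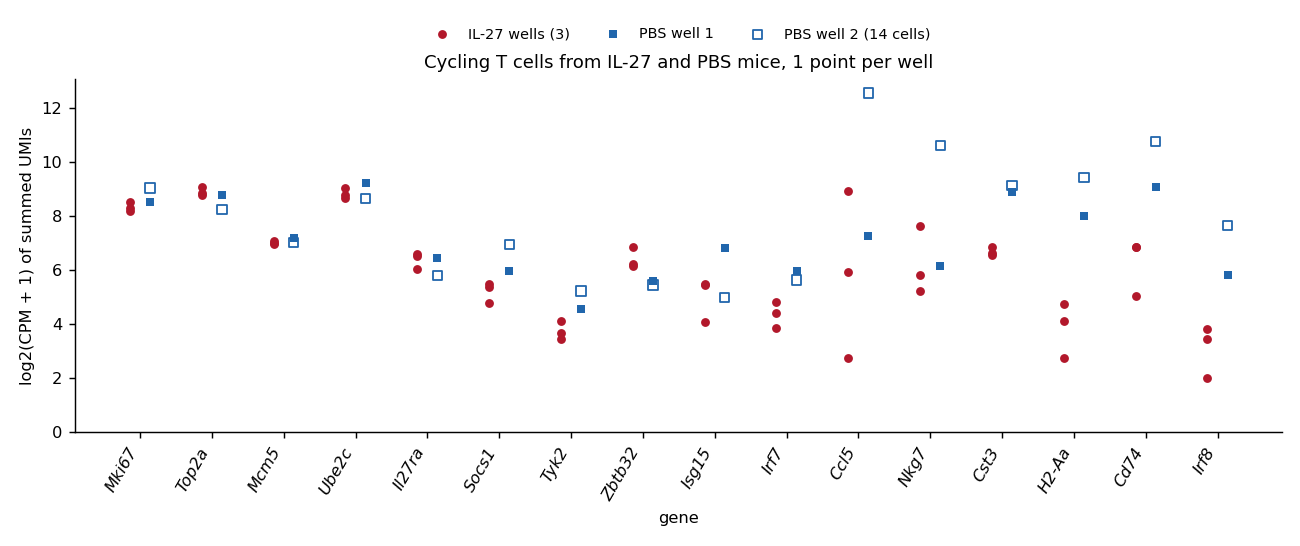
Level of 16 genes in cycling T cells as log2(CPM + 1), with 1 point per well (red circles, 3 IL-27 wells; filled blue square, PBS well 1; open blue square, PBS well 2 with 14 cells). Top2a, Mcm5, Ube2c and Il27ra overlap, Zbtb32 is higher and Socs1, Tyk2, Cst3, H2-Aa, Cd74 and Irf8 lower in all IL-27 wells, and Ccl5 and Nkg7 stand out in PBS well 2 alone. Mki67, a gene of the rule, nearly touches between the groups, at 359.8 CPM in IL-27 well 2 and 362 CPM in PBS well 1.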

How the data were processed

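The deposited files were 1 matrix of raw UMI counts per treatment (10x Genomics 5′ gene expression), with 31053 features. Per the submitters' processing notes they were made with Cell Ranger 3.0.0 on mm10; per the file headers the software version was 3.1.0. Counts were used as deposited, wells were read from barcode suffixes, and no labelled replicate exists. The members, gene lists and comparisons were chosen with earlier results of these data known.

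UMIs were summed per class, library and well, scaled to CPM and set against each other as log2(CPM + 1); a difference was counted from 2-fold. Genes of fixed lists were named, with the 15 highest and 10 lowest ratios outside them for members against other T cells, and for IL-27 over PBS the 10 highest and 10 lowest without overlap between wells, among genes of at least 50 CPM and 100 UMIs; receptor, ribosomal, mitochondrial and sex-linked genes were left out of the ranking. Genes named between members with both Cd4 and Cd8 and CD4-only members were chosen after their values were seen. Intervals are exact (Clopper-Pearson, 95%). Thinning drew 2000 or 8000 UMIs per cell, leaving out shallower cells. Doublets were called with Scrublet (scanpy 1.11.5). Wells were taken as replicates in edgeR 4.0.16 (quasi-likelihood) and DESeq2 1.42.0 with Benjamini-Hochberg adjustment as alternatives only, tested on simulated data first. Other alternatives changed the rule, filters, pseudocount, scaling, depth and wells. Tools were Python 3.11.15, numpy 2.4.6, scipy 1.17.1, pandas 2.3.3 and R 4.3.3. Results for some genes are not reported here.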

Additional observations from a re-analysis of the deposited data

How the results depend on the processing

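The IL-27 to PBS ratio of the cycling share (0.833) kept its direction under every change of rule, filter, depth, doublet removal and sex; leaving out a well moved it between 0.662 and 1.62. Thinning took the excess of members with both Cd4 and Cd8 (40.1 percentage points) to 14.9 at 8000 and 2.68 at 2000 UMIs, turned the Foxp3 difference (2.34) to -1.45 and -3.72, and turned that of cells with none of these genes (-25.5) to 5.50 and 4.04. Genes lower in members (662) numbered 398 with a pseudocount of 5 CPM, 1250 without a filter, 422 with TMM and 1025 after thinning. Genes higher with IL-27 (19) numbered 10 with a pseudocount of 5 CPM, 557 without a filter, 36 in female-called cells and 16 to 412 when leaving out a well (412 without PBS well 1, 36 without PBS well 2, 53 without IL-27 well 1). Genes lower (79) numbered 787 without a filter, 42 in female-called cells, 47 without the richest cells, 51 without members with other-lineage UMIs and 45 to 1024 when leaving out a well (1024 without PBS well 1, 45 without PBS well 2). With wells as replicates edgeR called 0 higher and 3 lower (Cst3, Tcrg-C1 and H2-Aa; 0% and 0.0396% of 7573) and DESeq2 0 and 8 (0% and 0.106%), with 246 and 97 at an unadjusted p under 0.05; without PBS well 1 edgeR called 187 and 148 and without PBS well 2 it called 1 and 16, each with the lone PBS well assumed to vary like the others. Genes higher in members with both than in CD4-only members (106) numbered 104 to 210 when leaving out a well (210 without IL-27 well 1 and 176 without PBS well 1). Havcr2, members over other T cells, lay between -1.54 and 0.025 when leaving out a well (0.025 without PBS well 2) and Ccl3, IL-27 over PBS, was 3.55 in female-called cells; the causes were not tested. Thinning to 8000 UMIs, leaving out the richest cells or members with other-lineage UMIs, and all alternatives for cycle stage and for the genes of members with both Cd4 and Cd8 were chosen after seeing the data. No paired analysis was possible because each treatment is 1 library and the wells carry no shared labelled number. The 14 members of PBS well 2 limit every comparison with PBS.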

Other observations

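Outside the T cell gate, 86 barcodes met the cycle threshold without a Cd3 UMI, and 79 of them held Cd79a. Of the 86, 60 lay in IL-27 well 3. Ebi3, the gene of the IL-27 beta chain, gave 68 UMIs in members (16.3 CPM, against 10.8 CPM in other T cells), while Il27, the gene of the p28 chain, gave 0. Klf2, a factor of resting T cells, was at 369, 359 and 398 CPM in members of the IL-27 wells and 263 and 248 CPM in members of the PBS wells, without overlap and at a log2 ratio of 0.51. Il4 was at 13.7 CPM in members of the IL-27 library and 1.69 CPM in members of the PBS library, with 37 of its 41 IL-27 UMIs in 1 cell.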
